A study of Homo sapiens with 12 samples.

Results

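The nuclear genes of oxidative phosphorylation were followed through RNA-sequencing libraries of MCF10A, an immortalised human breast epithelial cell line that does not form tumours. The members were the protein-coding rows of the count table whose current symbol names a nuclear-encoded subunit of 1 of the 5 respiratory complexes (NDUFA, NDUFB, NDUFC, NDUFS or NDUFV with a number, SDHA to SDHD, UQCR, COX4 to COX8, and ATP5F, ATP5M or ATP5P). The symbol rule uses no measured value, but the members were chosen with earlier results of these data known. The rule took 86 of 23459 rows, with 37 for complex I, 4 for complex II, 9 for complex III, 17 for complex IV and 19 for ATP synthase. All 12 libraries came from cells that carried a doxycycline-inducible YAP5SA allele, a YAP mutant that the Hippo pathway no longer restrains (YAP is a transcriptional coactivator). The cells had been infected either with an empty vector or with a vector that overexpresses JUN, a subunit of the AP-1 transcription factor, and were given either doxycycline at 100 ng/ml or its ethanol solvent. This gave 4 groups of 3 biological replicates, named JUN Dox, JUN EtOH, vector Dox and vector EtOH. Every doxycycline-treated group also carried the YAP5SA allele, so effects of the antibiotic itself, which is known to inhibit mitochondrial translation, and effects of YAP5SA cannot be told apart here.

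Oxidative phosphorylation takes electrons from NADH at complex I and from succinate at complex II, passes them through complex III and cytochrome c to oxygen at complex IV, and uses the resulting proton gradient to drive ATP synthase in the inner mitochondrial membrane. Most subunits are encoded in the nucleus, translated in the cytosol and imported, while a small core is encoded by mitochondrial DNA, so both genomes must supply parts of the same complex. Many of the nuclear genes are known targets of the activators NRF1 and GABP, an ETS-family factor, and of YY1. The mitochondrially encoded subunits were not analysed here.

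Promoter sequence is shown first because it is what these genes are best known to share. RefSeq promoters (GRCh38.p14, 250 bases before to 50 bases after a start site) were matched for 69 members, which have 82 promoters. The NRF1 core GCGCATGC was present on either strand in 18.3% of member promoters and in 3.77% of 21337 promoters of protein-coding genes in the count table. The ETS motif CCGGAAG was present in 26.8% against 13.0%, and the YY1 motif AAGATGGCG in 12.2% against 2.49%. The TEAD motif GGAATG, the letters bound by the DNA-binding partners of YAP, was present in 8.54% of member promoters and 12.1% of all promoters. The AP-1 motif TGANTCA, bound by JUN, was present in 4.88% and 6.12%. Of 31 members that were lower with JUN both without and with doxycycline, 25 had matched promoters, 28 in all, so a gene can count more than once. Of these promoters 7 (25%) held the NRF1 core, 8 (28.6%) the ETS motif and 3 (10.7%) the YY1 motif. The TEAD motif was in 4 (14.3%) and the AP-1 motif in 1 (3.57%). The last 3 letters of the ETS motif are the first 3 of the YY1 motif, so that 1 stretch can hold both, and a match is only a description of the letters. The 3 promoters shown here are the 250 bases before the start of SDHB and COX5B, which were lower with JUN in both backgrounds, and of ATP5PF, which was called in 1 of them. Capitals mark the NRF1 core, the ETS motif and, in ATP5PF, also the YY1 motif.
SDHB (chr1:17054033-17054282, minus strand): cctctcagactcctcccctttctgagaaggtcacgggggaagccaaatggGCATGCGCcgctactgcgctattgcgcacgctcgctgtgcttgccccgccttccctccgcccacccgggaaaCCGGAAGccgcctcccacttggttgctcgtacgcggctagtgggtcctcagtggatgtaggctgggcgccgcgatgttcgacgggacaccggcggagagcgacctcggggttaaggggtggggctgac
COX5B (chr2:97645812-97646061, plus strand): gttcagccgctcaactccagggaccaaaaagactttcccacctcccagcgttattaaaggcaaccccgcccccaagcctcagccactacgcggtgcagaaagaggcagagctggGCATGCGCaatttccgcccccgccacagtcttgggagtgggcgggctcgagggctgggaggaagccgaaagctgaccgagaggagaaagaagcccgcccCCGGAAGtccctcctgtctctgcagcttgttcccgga
ATP5PF (chr21:25735055-25735304, minus strand): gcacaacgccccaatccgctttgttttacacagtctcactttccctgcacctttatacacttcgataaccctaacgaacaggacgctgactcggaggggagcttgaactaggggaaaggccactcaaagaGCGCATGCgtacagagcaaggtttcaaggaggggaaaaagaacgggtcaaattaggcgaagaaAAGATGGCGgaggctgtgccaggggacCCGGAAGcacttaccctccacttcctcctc
The SDHB and COX5B stretches each held 1 NRF1 core and 1 ETS motif, and the ATP5PF stretch held 1 match to each of the 3 motifs. These examples hold more matches than many members. The same stretches of SDHA, UQCRC2, UQCRFS1 and ATP5MC1, also lower with JUN in both backgrounds, held none of the 3 motifs.

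The libraries held 18594867 to 28993487 counted reads. JUN itself was examined first as a check of the vector. In CPM, the share of a library's reads scaled to a common total, empty-vector cells held JUN at 55.0, 35.5 and 52.2 with solvent and at 188, 186 and 194 with doxycycline. JUN-vector cells held it at 1399, 1374 and 1064 with solvent and at 1325, 1274 and 1146 with doxycycline, far above the others. The vector raised JUN by 4.75 on the log2 scale without doxycycline (SE 0.18, edgeR adjusted p 1.74e-10) and by 2.72 with it (adjusted p 1.6e-08), and doxycycline raised it by 1.99 in vector cells (adjusted p 3.09e-07). The mammary basal epithelial markers were abundant, and their summed level, carried mainly by KRT5, LAMB3 and KRT17, was lower with doxycycline. It ran from 8715 to 9360 CPM in vector EtOH against 4804 to 6051 CPM in vector Dox, and from 9440 to 10822 CPM in JUN EtOH against 6084 to 8556 CPM in JUN Dox. Single markers differed from the sum, since the mean of EGFR was 128 CPM in vector EtOH and 199.5 in vector Dox. The mean of CDH1 was 129 CPM in each of these groups, but 120 in JUN EtOH and 58.7 in JUN Dox. With JUN the markers also went both ways. From vector EtOH to JUN EtOH, LAMB3 went from 1444 to 3566 CPM and KRT14 from 209 to 481. KRT5 went from 4615 to 3521 CPM and ITGB4 from 758 to 449. In the leukocyte list PTPRC did not exceed 0.15 CPM and CD3E had 0 counts, which allows up to 3 counts in a library, while CD68, a lysosomal protein that other cells also make, moved with JUN and gave nearly all of the list's level. That level ran from 28.0 to 29.8 CPM in vector EtOH against 77.9 to 93.3 CPM in JUN EtOH, and from 17.0 to 19.3 CPM in vector Dox against 50.8 to 68.9 CPM in JUN Dox. The fibroblast list, nearly all of it PDGFRA, was lower with JUN, at 92.2 to 100.04 CPM in JUN EtOH against 106 to 118 CPM in vector EtOH and at 112 to 117.6 CPM in JUN Dox against 118.1 to 158 CPM in vector Dox. The endothelial list did not exceed 1.95 CPM in any library, and its PECAM1 had a mean of 1.75 CPM in vector EtOH and 0.47 in JUN EtOH. The part of these markers in the results was not tested. In bulk RNA, fewer cells of one type and less RNA per cell cannot be told apart.

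Of the 86 members, 80 had enough reads to be tested among 14775 genes. The 6 left out were the paralogues of complex IV that are best known from other tissues, COX4I2, COX6A2, COX6B2, COX7A1, COX7B2 and COX8C, and none of them exceeded 11 counts in any library. Their partner isoforms COX4I1, COX6A1, COX6B1, COX7A2 and COX8A were all tested, so these cells carried the broadly expressed forms. Per kilobase of the canonical transcript, the level over all libraries was highest for the catalytic β subunit ATP5F1B in ATP synthase at 467 CPM per kb, followed by ATP5F1D at 193. In complex IV it was highest for COX4I1 at 290 and COX8A at 275. The 4 subunits of complex II lay close together, between 45.2 CPM per kb for SDHA and 57.8 for SDHB.

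The members moved together between replicates of the same group, and this sets the precision of every comparison. In vector EtOH, replicate 2 gave the highest value of its group for 75 of the 80 members and replicate 1 the lowest for 73. In vector Dox, replicate 1 gave the highest value for 77 and replicate 2 the lowest for 65. In JUN EtOH replicate 1 was the lowest for 67 members, and in JUN Dox replicate 1 was the lowest for 58. The median member in vector Dox replicate 1 lay 0.41 above its group mean on the log2 scale, and the median member in replicate 2 lay 0.28 below it (-0.28). These libraries also differed in how their read counts followed transcript length, since transcript length and the distance of a library from the mean of its group correlated across genes, with r = -0.394 in vector Dox replicate 1 and 0.352 in replicate 2. Genes are not independent replicates, so these values are descriptions. The part of transcript length in the results was not tested. The fit with a length term given at the end used only these distances from the group mean. It therefore cannot address a length trend that differs between groups.

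Summed over each complex, the members' RNA stood lower in JUN cells than in vector cells. Some members share exons with another member, so a read can enter a sum more than once. All members together summed to 7548, 9575 and 8220 CPM in vector EtOH and to 5759, 6140 and 6449 CPM in JUN EtOH. With doxycycline the sums were 9596, 6533 and 6968 CPM in vector Dox and 5249.8, 6065 and 5955 CPM in JUN Dox. Both JUN groups lay below every library of their vector group, and vector Dox held both the highest library and a wide spread (7699 ± 1657 CPM, SD, n = 3). The difference of the group means was -27.6% without doxycycline and -25.2% with it. By complex it was widest for complex III, at -32.5% without and -31.7% with doxycycline, and narrowest for complex II, at -22.7% and -21.3%.

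**Figure D1:**
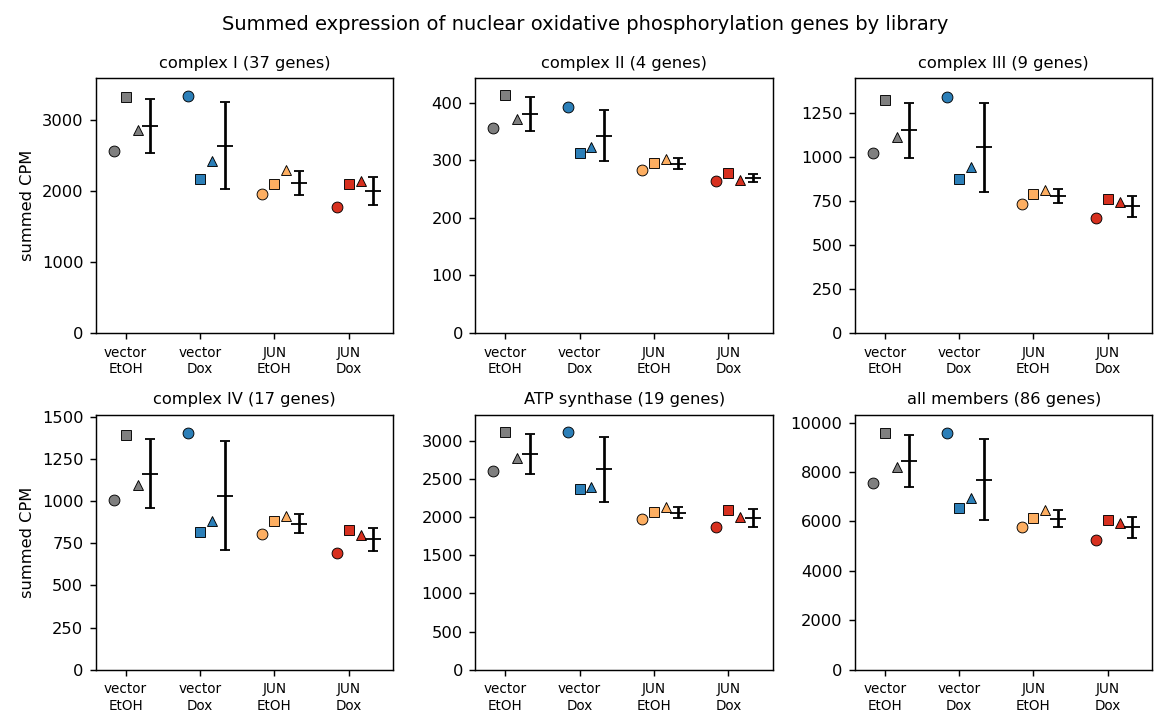
Summed CPM of the members of each complex in the 12 libraries, where each point is a library, its shape gives the replicate number, and bars show the group mean ± SD (n = 3). The summed level of all members runs from 5249.8 to 9596 CPM, and vector Dox replicate 1 sits well above the other replicates of its group in every complex.

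The first comparison asked what JUN overexpression did to these genes in cells without induced YAP5SA. Of the 80 members, 43 (53.8%) were lower in JUN EtOH than in vector EtOH and none was higher, by edgeR's quasi-likelihood test at a Benjamini-Hochberg adjusted p under 0.05. Over all 14775 genes 18.9% were called lower and 20.1% higher. DESeq2 called 48 members lower and none higher. All 80 log2 fold changes lay below 0, with a median of -0.43 (-25.8%), while the median over all genes was 0.00. For 64 members every JUN EtOH library lay below every vector EtOH library, which held for 28.9% of all genes. The count rested on the libraries used, since it was 19 without JUN EtOH replicate 1 and 20 without vector EtOH replicate 2. It was 64 without vector Dox replicate 1, which is not in this comparison but is in the shared fit that estimates the spread. Of the 43, 19 were called in each of the 12 fits that left out 1 library. The shares of all genes called by DESeq2 and by these fits are not given, so their counts are not set against 18.9%.

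In complex I, 20 of 37 subunits were lower, with a median log2 fold change of -0.42. NDUFS8, a core subunit that carries iron-sulfur clusters on the way from NADH to ubiquinone (GRCh37 chr11:67798084-67804111), stood at 71.8, 104 and 83.9 CPM in vector EtOH and at 42.2, 46.8 and 55.6 CPM in JUN EtOH. The groups did not overlap, and NDUFS8 was lower by -0.84 on the log2 scale (SE 0.16, edgeR adjusted p 0.00113). NDUFS6, an accessory subunit, stood at 111, 153 and 126 CPM in vector EtOH and at 66.5, 68.1 and 85.9 CPM in JUN EtOH. Its highest JUN library again lay below its lowest vector library (log2 fold change -0.82, SE 0.18, edgeR adjusted p 0.00298). NDUFV1, the flavoprotein that first takes up the electrons of NADH, fell by 0.60 on the log2 scale (SE 0.14, edgeR adjusted p 0.00354). The core subunit NDUFS7 fell by 0.64 (SE 0.17, edgeR adjusted p 0.0101), a call that was lost without vector EtOH replicate 2 (adjusted p 0.0636). NDUFS1, another core subunit, was not called. It stood at 88.5, 83.5 and 93.1 CPM in vector EtOH and at 87.7, 85.0 and 83.1 CPM in JUN EtOH, so the groups overlapped. Its log2 fold change was -0.05, with a 95% interval from -0.25 to 0.14, which leaves out the median change of the members.

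Complex II, which is also the succinate dehydrogenase of the citrate cycle and has no mitochondrially encoded subunit, split into 3 subunits that were lower and 1 that was not. SDHB, the iron-sulfur subunit whose promoter is shown (gene at GRCh37 chr1:17345159-17380527), stood at 65.9, 84.6 and 70.7 CPM in vector EtOH and at 39.6, 45.6 and 46.3 CPM in JUN EtOH. Its groups were well apart (log2 fold change -0.75, SE 0.15, edgeR adjusted p 0.00111). SDHD, a membrane anchor, stood at 80.0, 96.6 and 82.0 CPM against 56.5, 62.1 and 56.7 CPM (log2 fold change -0.56, SE 0.11, edgeR adjusted p 0.00116). SDHA, the flavoprotein, differed less and stood at 141, 149 and 144 CPM against 114, 114 and 121 CPM (log2 fold change -0.32, SE 0.08, edgeR adjusted p 0.00747). SDHC, the other membrane anchor, stood at 69.3, 83.1 and 75.1 CPM in vector EtOH and at 74.1, 74.1 and 78.7 CPM in JUN EtOH. Its groups overlapped throughout, with a log2 fold change near 0 (adjusted p 0.984) and a 95% interval from -0.23 to 0.22. SDHA, SDHB and SDHD were called in each fit that left out 1 library.

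In complex III, 6 of 9 subunits were lower, with a median of -0.55. UQCRFS1, the Rieske iron-sulfur protein that takes an electron from ubiquinol (GRCh37 chr19:29696227-29704058), stood at 137, 167 and 141 CPM in vector EtOH and at 80.5, 89.2 and 91.7 CPM in JUN EtOH. No library of one group reached the other (log2 fold change -0.77, SE 0.14, edgeR adjusted p 0.000654). Of the core proteins, UQCRC2 fell by 0.36 (SE 0.09, edgeR adjusted p 0.00398) and UQCRC1 fell by 0.79 (SE 0.14, edgeR adjusted p 0.000599). UQCRC1 stood at 244, 282 and 276 CPM in vector EtOH and at 139.6, 146 and 179 CPM in JUN EtOH, again without overlap.

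In complex IV, 4 of 11 tested subunits were lower, with a median of -0.42. They were COX5A, COX5B, COX6B1 and COX8A. COX5B stood at 86.2, 126 and 98.3 CPM in vector EtOH and at 61.7, 71.4 and 74.4 CPM in JUN EtOH. The groups did not overlap, yet the call (log2 fold change -0.58, SE 0.19, edgeR adjusted p 0.0264) was lost without vector EtOH replicate 2 (adjusted p 0.137), its highest library. COX5A fell by 0.56 (SE 0.14, edgeR adjusted p 0.0064) and was called in every fit that left out 1 library. COX6B1 and COX8A fell by 0.54 and 0.49 (edgeR adjusted p 0.0379 and 0.0451), and both calls were lost in some of these fits, at adjusted p up to 0.157 and 0.22. COX4I1 gave -0.41 (edgeR adjusted p 0.1), COX6A1 -0.42 (0.11) and COX7A2 -0.38 (0.213), none of them a call. COX7A2L gave -0.23 (edgeR adjusted p 0.157) and is a factor of supercomplex assembly rather than a subunit of the enzyme. COXFA4, formerly NDUFA4, is a complex IV subunit outside the symbol rule, and its log2 fold change was -0.06 (edgeR adjusted p 0.815).

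In ATP synthase, 10 of 19 subunits were lower, with a median of -0.43. ATP5F1D, the δ subunit of the rotor stalk (GRCh37 chr19:1241745-1244824), stood at 231, 307 and 243 CPM in vector EtOH and at 114, 131 and 152 CPM in JUN EtOH. This was the lowest log2 fold change of any member (-0.98, SE 0.18, edgeR adjusted p 0.00083), and the groups were far apart. The 3 genes that encode the same c subunit of the membrane rotor gave -0.79 for ATP5MC1 (SE 0.17, edgeR adjusted p 0.00263), -0.63 for ATP5MC3 (SE 0.17, edgeR adjusted p 0.00832) and -0.48 for ATP5MC2, which did not pass (edgeR adjusted p 0.0547). ATP5MC1 stood at 42.4, 64.1 and 53.0 CPM in vector EtOH and at 28.7, 31.9 and 31.5 CPM in JUN EtOH. The catalytic head subunits differed less, with ATP5F1B at -0.43 (SE 0.10, edgeR adjusted p 0.00512) and ATP5F1A at -0.33 (SE 0.11, edgeR adjusted p 0.0316). ATP5F1B, the most abundant member in CPM, stood at 938, 983 and 1022 CPM in vector EtOH and at 713, 716 and 763 CPM in JUN EtOH, with no overlap. ATP5ME, a small membrane subunit, fell by 0.85 (SE 0.25, edgeR adjusted p 0.0148), a call lost without vector EtOH replicate 2 (adjusted p 0.0789). The ε subunit ATP5F1E had a log2 fold change of -0.01 (edgeR adjusted p 0.964).

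**Figure D2:**
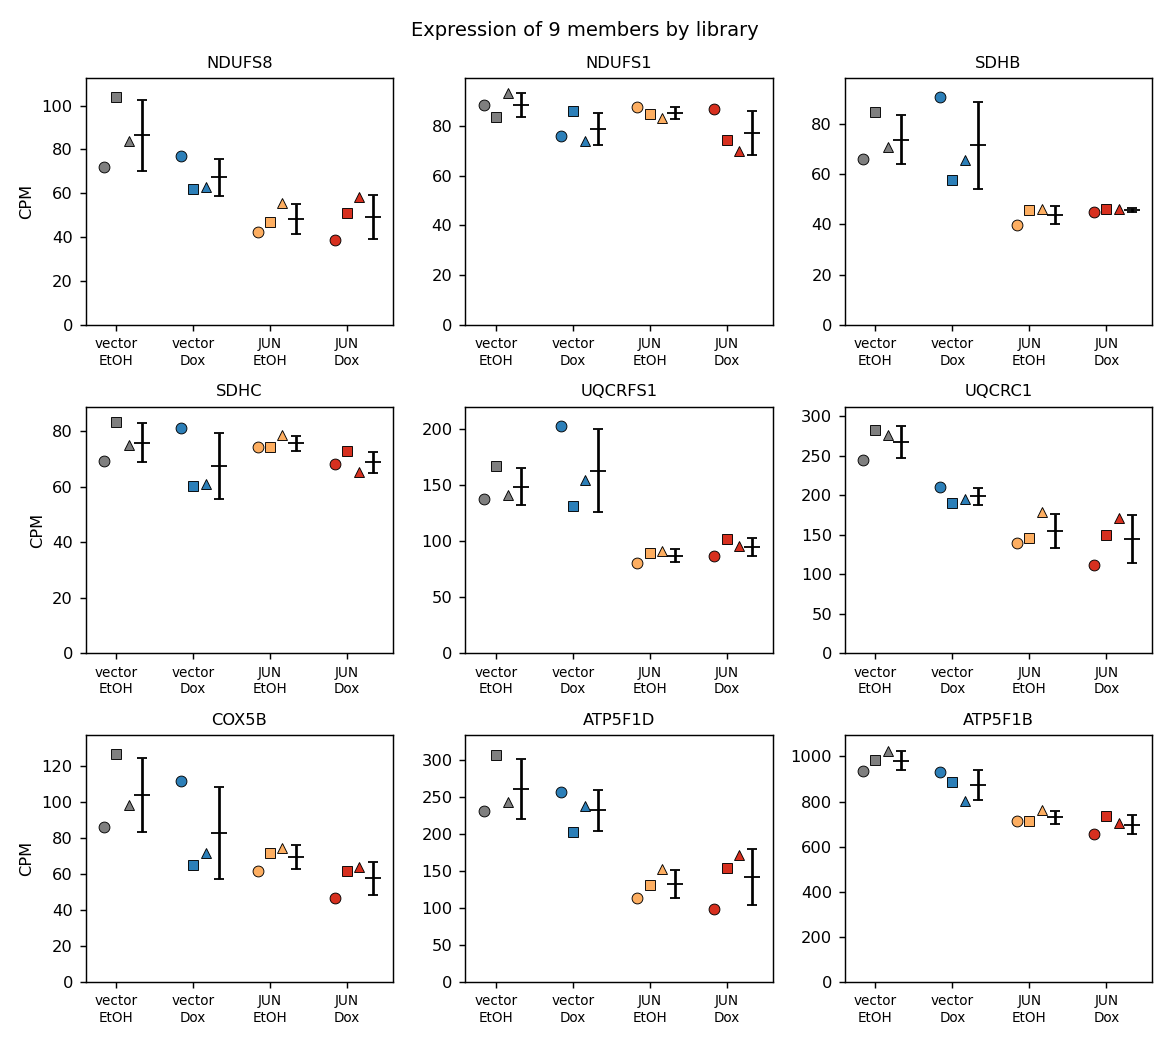
CPM of 9 members in each library of the 4 groups, with bars at the group mean ± SD (n = 3). SDHB, UQCRFS1 and ATP5F1D lie lower in both JUN groups than in the vector groups, while NDUFS1 and SDHC overlap across the groups.

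The second comparison asked the same question in cells with induced YAP5SA, between the other 6 libraries. Its calls came from the same fit of all 12 libraries, with 1 shared estimate of the spread. Of the 80 members, 37 (46.3%) were lower in JUN Dox than in vector Dox and none was higher, against 17.2% lower and 18.4% higher over all genes (edgeR). DESeq2 called 45 lower and none higher. The log2 fold change was below 0 for 79 members, with a median of -0.43 (-25.6%) beside 0.00 over all genes. For 38 members every JUN Dox library lay below every vector Dox library, against 21.2% of all genes. This count depended strongly on vector Dox replicate 1, the library in which most members were highest. Without it 10 members were called and the median was -0.17, and without vector Dox replicate 2 there were 62. It was 17 without JUN Dox replicate 1, 20 without JUN Dox replicate 2, and 12 when only the 6 libraries of the comparison were fitted. Of the 37, 10 were called in each of the 12 fits that left out 1 library. Here too the shares of all genes under DESeq2 and the other fits are not given, so those counts are not set against 17.2%.

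By complex, 13 of 37 subunits of complex I were lower, 3 of 4 of complex II, 8 of 9 of complex III, 4 of 11 of complex IV and 9 of 19 of ATP synthase. The medians were -0.42, -0.41, -0.57, -0.50 and -0.40. UQCRFS1 had the lowest log2 fold change of the 80 tested members. It stood at 203, 131 and 155 CPM in vector Dox and at 86.8, 102 and 95.4 CPM in JUN Dox, with no overlap (log2 fold change -0.78, SE 0.14, edgeR adjusted p 0.000592). ATP5F1D stood at 257, 203 and 237 CPM in vector Dox and at 98.5, 154 and 172 CPM in JUN Dox. These groups too were apart (log2 fold change -0.71, SE 0.18, edgeR adjusted p 0.00714). SDHB stood at 90.9, 57.8 and 65.6 CPM against 44.8, 46.2 and 46.0 CPM, so that its JUN libraries lay within a narrow range below a spread vector group (log2 fold change -0.64, SE 0.15, edgeR adjusted p 0.00345). SDHD fell by 0.48 (SE 0.11, edgeR adjusted p 0.00371) and SDHA fell by 0.34 (SE 0.08, edgeR adjusted p 0.00486). SDHC was again apart from them, at 81.0, 60.1 and 60.8 CPM in vector Dox and 68.2, 72.7 and 65.2 CPM in JUN Dox. Its groups overlapped, and its log2 fold change was 0.03 with a 95% interval from -0.20 to 0.26. NDUFS1 stood at 76.0, 86.0 and 74.0 CPM against 86.9, 74.4 and 70.0 CPM, also overlapping, with -0.03 and an interval from -0.22 to 0.16. Both intervals leave out the median change of the members.

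Several members that were called in both comparisons lost the call here when 1 library was left out. NDUFS8 fell by 0.45 (SE 0.16, edgeR adjusted p 0.0453) and UQCRC1 by 0.46 (SE 0.14, edgeR adjusted p 0.0216), and without JUN Dox replicate 1 their adjusted p was 0.178 and 0.0826. NDUFA3, an accessory subunit of complex I, fell by 0.71 (SE 0.22, edgeR adjusted p 0.0239) and ATP5ME by 0.73 (SE 0.25, edgeR adjusted p 0.0341), and without vector Dox replicate 1 their adjusted p was 0.153 and 0.257. COX5B fell by 0.52 (SE 0.19, edgeR adjusted p 0.0458), with an adjusted p of up to 0.28 when 1 library was left out. ATP5MC1 and ATP5MC3 fell by 0.68 and 0.60 (edgeR adjusted p 0.0075 and 0.0115) and ATP5MC2 gave -0.40 (edgeR adjusted p 0.105).

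The JUN comparisons contrast groups that share no library, so their calls can be set side by side. Both used 1 fit with a shared estimate of the spread, so the calls are not independent. A total of 31 members were lower in both, which is 72.1% of the 43 called without doxycycline and 83.8% of the 37 called with it. The same overlap over all genes was not counted, so these shares are not read as a trait of the members. Another 12 were called only without doxycycline, among them NDUFA9, COX8A, ATP5F1C and ATP5PF. ATP5PF, a subunit of the stator stalk, had -0.39 without doxycycline (edgeR adjusted p 0.014) and -0.26 with it (edgeR adjusted p 0.0829). The 6 called only with doxycycline were ATP5MF-PTCD1, ATP5MJ, COX7B, NDUFB2, UQCR11 and UQCRB. Of these, ATP5MF-PTCD1 also spans exons of PTCD1, which is not a member. A call in 1 comparison only does not show that the changes differ, and the interaction, which tests that difference, called no member. When each library was left out in turn, 9 members were called in both comparisons in all 12 fits. These were NDUFA5 of complex I, SDHA, SDHB and SDHD of complex II, UQCRC2 and UQCRFS1 of complex III, and ATP5F1D, ATP5MC1 and ATP5MC3 of ATP synthase. NDUFA5, an accessory subunit, stood at 47.6, 55.5 and 51.4 CPM in vector EtOH against 38.3, 39.2 and 38.3 CPM in JUN EtOH, and at 52.1, 38.5 and 40.6 CPM in vector Dox against 31.4, 33.4 and 33.2 CPM in JUN Dox. Its JUN libraries lay below the vector libraries in both backgrounds (log2 fold change -0.42 in each, edgeR adjusted p 0.00943 and 0.00947).

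**Figure D3:**
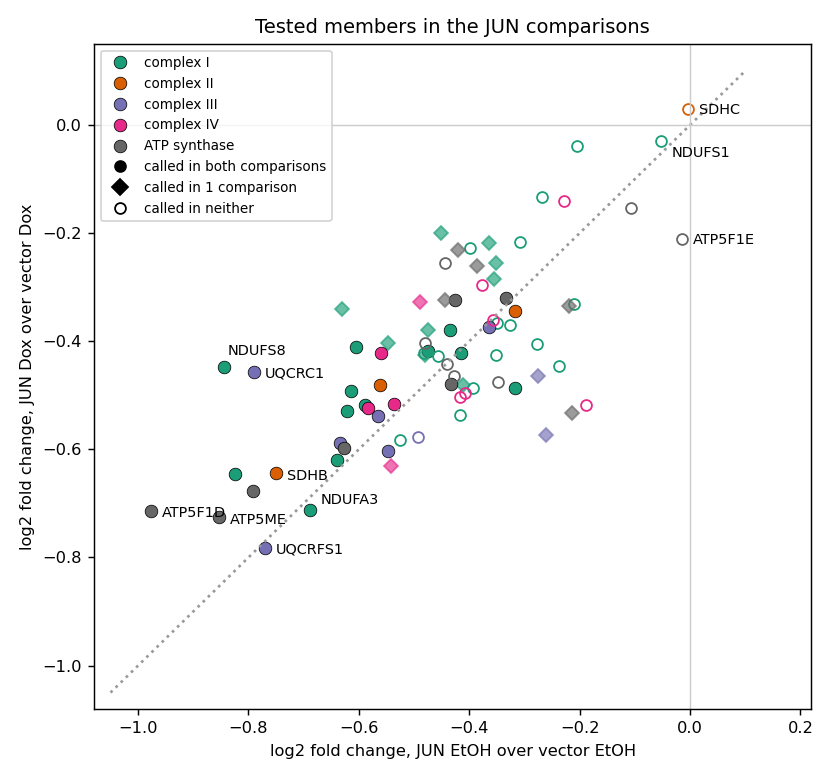
Log2 fold change of each of the 80 tested members, with JUN EtOH over vector EtOH on the x axis and JUN Dox over vector Dox on the y axis, coloured by complex, with filled circles for members called in both comparisons, diamonds for 1 and open circles for neither. In all, 79 of 80 members lie below 0 on both axes, and NDUFS1 and SDHC lie near 0 on both.

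The third question was whether induction of YAP5SA by doxycycline moved these genes. In vector cells 1 member was lower and none higher, while 14.4% of all genes were lower and 15.6% higher (edgeR). In all, 5 members passed an unadjusted p under 0.05, as did 5921 of all 14775 genes, and DESeq2 called 3 lower and none higher. The median was -0.14, beside 0.01 over all genes, and 69 of 80 members lay below 0. For 4 members every vector Dox library lay below every vector EtOH library, against 21.3% of all genes. The 1 member was UQCRC1, which stood at 244, 282 and 276 CPM in vector EtOH and at 210.3, 190.1 and 195 CPM in vector Dox. The groups did not overlap (log2 fold change -0.43, SE 0.14, edgeR adjusted p 0.0311), and the call was lost without vector EtOH replicate 2 (adjusted p 0.0887). No other member passed, and their values ran from -0.36 for NDUFS8 (edgeR adjusted p 0.113) to 0.25 for ATP5MK (edgeR adjusted p 0.366). Here too vector Dox replicate 1 decided the count, since without it 38 members were lower and the median was -0.37. With the length term, 22 members were lower. The shares of all genes under DESeq2, the length term and the fits that left out 1 library are not given.

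In JUN cells no member was called in either direction between JUN Dox and JUN EtOH by edgeR, where 10.3% of all genes were lower and 11.2% higher. In all, 2 members passed an unadjusted p under 0.05, as did 4884 of all 14775 genes, and DESeq2 called 1 lower and none higher. The median was -0.10, beside 0.00 over all genes, with 58 of 80 below 0. For 18 members every JUN Dox library lay below every JUN EtOH library, against 19% of all genes. With the length term, 10 members were lower, again without a share of all genes under that fit or under DESeq2. SDHA came nearest to a call. It stood at 114, 114 and 121 CPM in JUN EtOH and at 95.2, 99.8 and 104 CPM in JUN Dox, without overlap (log2 fold change -0.22, SE 0.08, edgeR adjusted p 0.0699). The JUN and induction comparisons in vector and JUN cells share libraries, so their values are set side by side only.

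Whether the effect of the JUN vector differed with induction was tested as an interaction, the difference between the log2 fold changes with and without doxycycline. No member was called by edgeR or DESeq2, while edgeR called 0.826% of all genes lower and 0.291% higher. No member had an unadjusted p under 0.05, against 1330 of all 14775 genes. The median was 0.03. Among the 80 members the largest value was 0.40 for NDUFS8 (SE 0.23, edgeR adjusted p 0.716), followed by 0.33 for UQCRC1 (SE 0.20, edgeR adjusted p 0.726). For comparison, JUN itself had an interaction of -2.03 (edgeR adjusted p 0.000133).

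**Figure D4:**
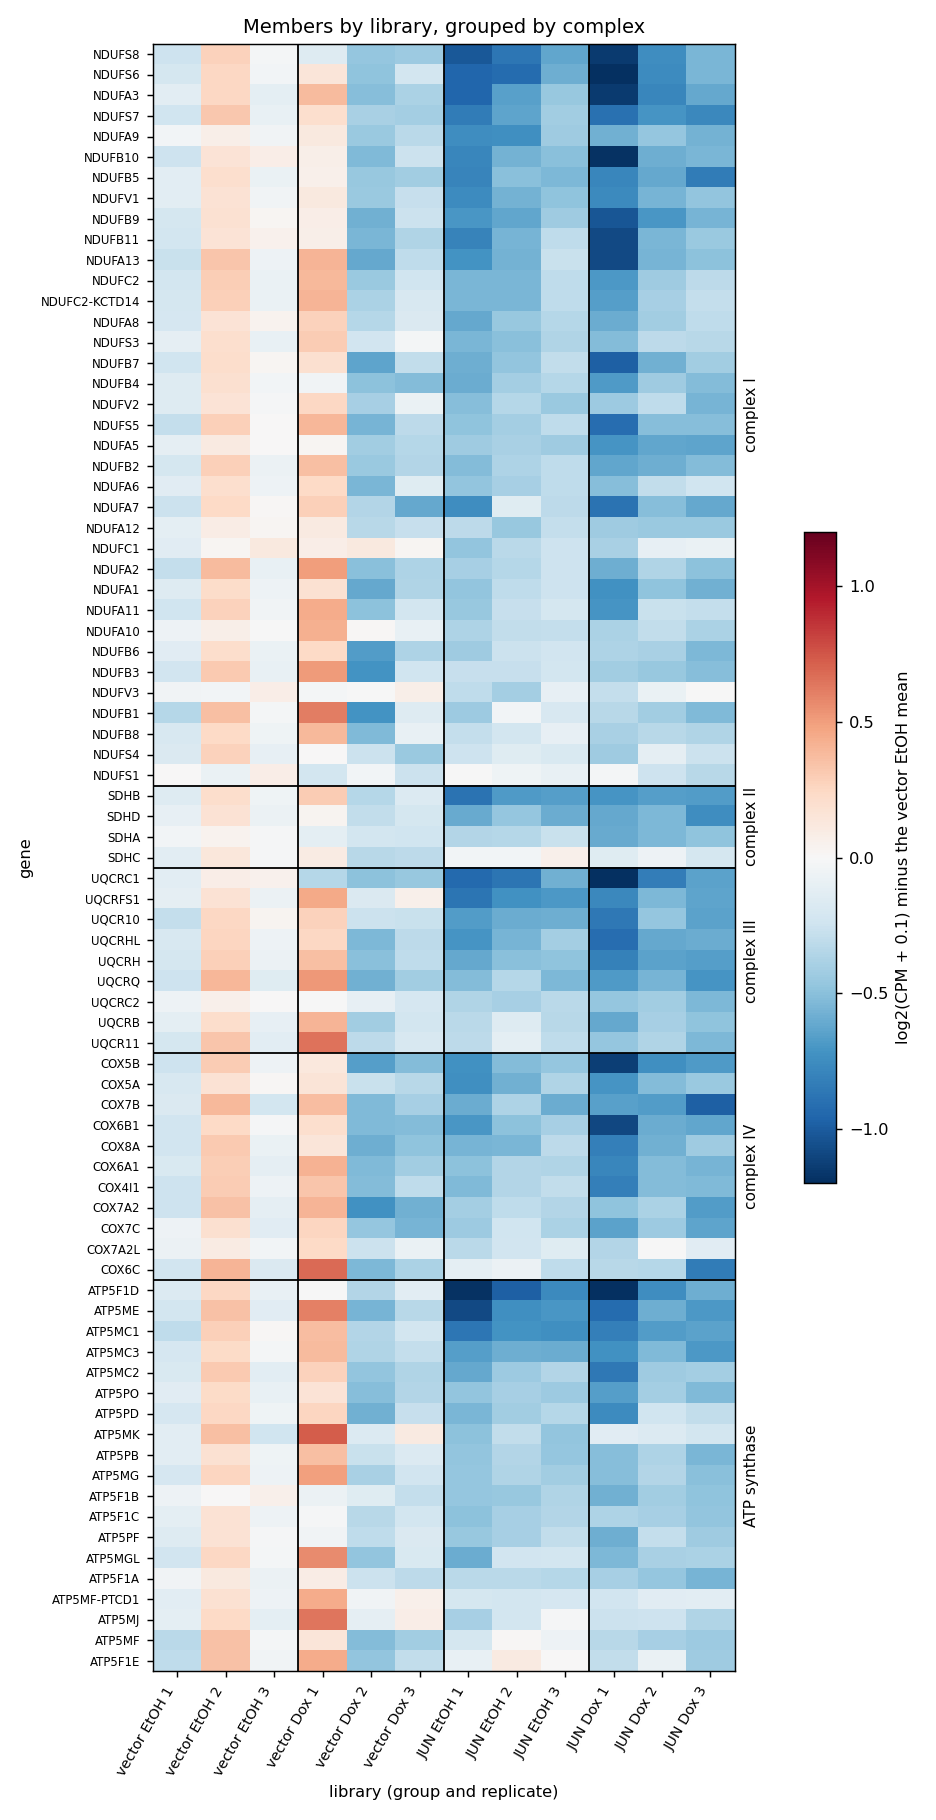
Of the 80 tested members, 79 (rows, by complex) in each of the 12 libraries (columns), as log2(CPM + 0.1) minus the mean of the 3 vector EtOH libraries, from blue (lower) to red (higher). The JUN libraries are lower for most rows, vector Dox replicate 1 is higher than the other vector Dox libraries for 77 of 80 members, and the rows of NDUFS1 and SDHC are close to 0 in the JUN EtOH libraries.

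Other nuclear genes of mitochondria were read from lists of assembly factors, electron carriers, regulators of mitochondrial biogenesis, citrate cycle enzymes and mitochondrial ribosomal proteins. Over all genes, 18.9% were lower and 20.1% higher with JUN without doxycycline, and 17.2% lower and 18.4% higher with it. With JUN and without doxycycline, 22 of 49 assembly factors were lower and 1 was higher (median -0.33), and with doxycycline 21 were lower and none higher (median -0.30). ECSIT, a complex I assembly factor, fell by 1.06 (edgeR adjusted p 2.55e-05) and 0.72 (edgeR adjusted p 0.000647). NDUFAF4, another, fell by 0.95 and 0.92 (edgeR adjusted p 0.00108 and 0.00113). COA1, which acts in complex IV assembly, was the 1 higher, by 0.52 (edgeR adjusted p 0.00435). Of the 9 electron carriers and other subunits outside the symbol rule, 5 and 3 were lower and 1 and none higher. CYCS, the cytochrome c that links complexes III and IV, fell by 0.71 in both (edgeR adjusted p 0.000931 and 0.000934). Among 18 citrate cycle genes 9 and 7 were lower and none higher, with MDH2, the malate dehydrogenase of mitochondria, at -0.70 and -0.59 (edgeR adjusted p 0.000945 and 0.00334). Of 77 mitochondrial ribosomal proteins 52 and 53 were lower and none higher, with medians of -0.46 and -0.43. MRPS12 fell by 0.88 and 0.90 (edgeR adjusted p 0.00131 and 0.00114).

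The regulators divided by gene. Of 14, 7 were lower and 1 higher with JUN without doxycycline, and 6 were lower and none higher with it. PPARGC1B, a coactivator of mitochondrial biogenesis, fell by 0.71 and 0.78 (edgeR adjusted p 0.00274 and 0.00161), and POLRMT, the mitochondrial RNA polymerase, by 0.77 and 0.48 (edgeR adjusted p 0.000735 and 0.0156). NRF1 itself gave -0.24 and -0.25 (edgeR adjusted p 0.0903 and 0.0705), and GABPA, the DNA-binding subunit of GABP, gave 0.01 and -0.02 (edgeR adjusted p 0.969 and 0.886). The NRF1 core and the ETS motif are among the letters marked in the promoters of SDHB, COX5B and ATP5PF. Whether these factors had a part in the values of the members was not tested.

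On induction of YAP5SA some genes of these lists were called higher, as were 15.6% of all genes in vector cells and 11.2% in JUN cells. In vector cells 13 of 77 mitochondrial ribosomal proteins, 8 of 49 assembly factors, 7 of 14 regulators and 2 of 9 electron carriers were higher, while 1 assembly factor, 1 electron carrier and 1 citrate cycle gene were lower. For the ribosomal proteins (16.9%) and assembly factors (16.3%) this share was near that of all genes, and is no result about them. The medians were 0.16 for the ribosomal proteins, 0.09 for the assembly factors and 0.25 for the regulators, beside -0.14 for the subunits. MRPL33 rose by 1.38 (edgeR adjusted p 2.44e-05), NDUFAF4 by 0.67 (edgeR adjusted p 0.01), CYCS by 0.48 (edgeR adjusted p 0.0136) and TFB2M, a mitochondrial transcription factor, by 0.57 (edgeR adjusted p 0.00213). In JUN cells 9 ribosomal proteins, 5 assembly factors, 4 regulators, 1 electron carrier and 1 citrate cycle gene were higher and none of the 5 lists had a lower gene. The shares of the ribosomal proteins (9 of 77) and assembly factors (5 of 49) were again near that of all genes. PPRC1, a coactivator related to PPARGC1B, rose by 0.57 in vector cells (edgeR adjusted p 0.0112) and by 0.77 in JUN cells (edgeR adjusted p 0.00239). These lists were described by counts and medians only, and the difference between them and the subunits was not tested.

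**Figure D5:**
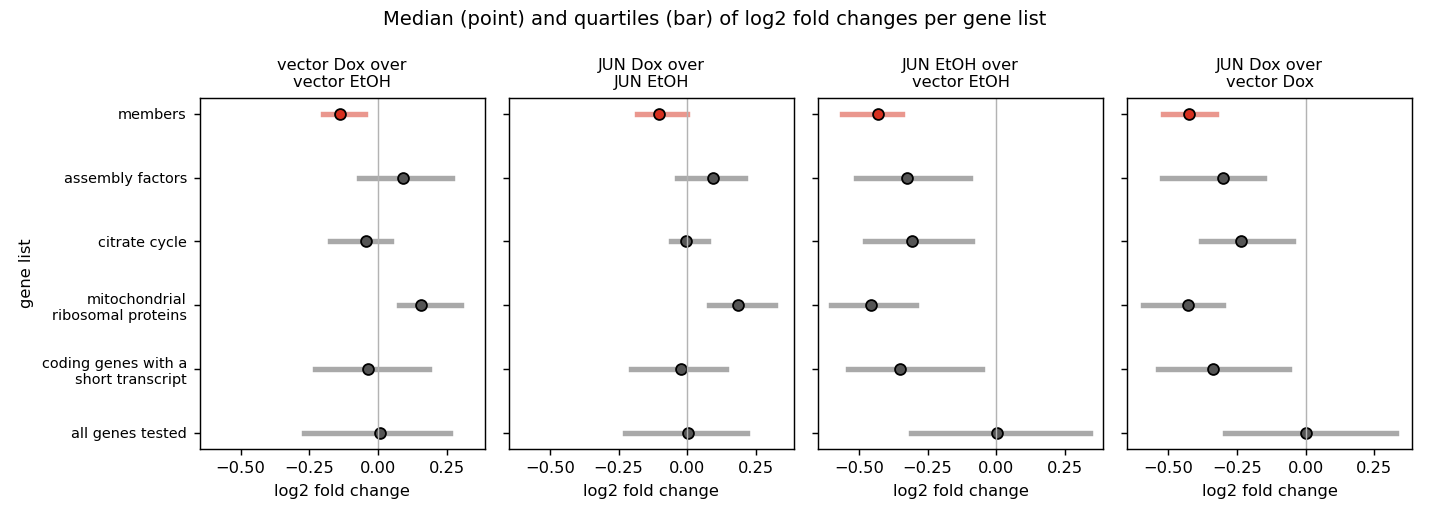
Median log2 fold change (points) of the members, of the assembly factors, citrate cycle genes and mitochondrial ribosomal proteins, of coding genes with a transcript under 1000 bases and of all tested genes in the 4 pairwise comparisons, with bars from the lower to the upper quartile. In both JUN comparisons the members' median is -0.43, and in both induction comparisons the members' median lies below 0 and that of the mitochondrial ribosomal proteins above 0.

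Most members are short genes. The median canonical transcript was 744 bases for members and 3214 bases for all tested genes, while the exon GC content was alike at 47.8% and 47.7%. Of 742 tested protein-coding genes with a transcript under 1000 bases, members included, 34.0% were lower with JUN without doxycycline (median -0.35) and 32.2% with it (median -0.34). In this length class 52.1% of 48 members and 32.7% of 694 other genes were lower without doxycycline, and 37.5% and 31.8% with it. Among transcripts of 1000 to 2000 bases 64.3% of 14 members were lower without doxycycline, against 32.9% of 2332 other genes, and 57.1% against 27.1% with it. Among transcripts of 2000 bases or more the shares were 52.9% of 17 members and 15.4% of 10070 other genes without doxycycline, and 64.7% and 14.4% with it. The members' median was between -0.44 and -0.33 in each class and comparison, while that of the other genes went from -0.33 to 0.07. A term for each library's length trend within its group was added after the data were seen. With it, 69 members were lower in each of the JUN comparisons, 22 on induction in vector cells and 10 on induction in JUN cells. The term holds no difference between groups, so it cannot test a length trend that follows JUN or doxycycline. The share of all genes called in this fit is not given, so these counts are not set against shares of the main fit.

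Reads of some members could not be assigned to 1 gene. ATP5MF-PTCD1 and NDUFC2-KCTD14 are readthrough genes that share exons with ATP5MF and NDUFC2, and UQCRHL and ATP5MGL are intronless copies of UQCRH and ATP5MG. UQCRHL had a mean of 2398 counts per library and UQCRH 2086, and their values with JUN were near each other, at -0.57 and -0.55 without doxycycline and -0.54 and -0.60 with it. Exons of 47 members overlapped those of another gene by 1 base or more in GENCODE (GRCh37), and the library kit named in the labels does not mark strand. Among the 35 tested members without such an overlap, 22 were lower with JUN without doxycycline and 19 with it. The pseudogene rows UQCRBP1 and ATP5F1EP2 held means of 913 and 1057 counts, and reads of these rows and of UQCRB and ATP5F1E cannot be told apart where the sequences match. UQCRBP1 gave -0.12 and -0.19 with JUN (edgeR adjusted p 0.54 and 0.358), beside -0.28 and -0.46 for UQCRB (edgeR adjusted p 0.207 and 0.0446). ATP5F1EP2 gave 0.02 and -0.09 (edgeR adjusted p 0.956 and 0.767). The SDHA pseudogene rows SDHAP1, SDHAP2, SDHAP3 and SDHAP4 held means of 98.1 to 250 counts, beside 2805.5 for SDHA. SDHAP3 gave -0.16 and -0.55 with JUN (edgeR adjusted p 0.561 and 0.0468). The other SDHA pseudogene rows were not called in either JUN comparison.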

How the data were processed

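The deposited table holds raw read counts per gene (Entrez rows) for 12 libraries of 75-base single-end poly(A) RNA-seq, made by the authors with cutadapt (4.2), Bowtie2 (2.3.5.1) and hg19, per the labels, and counted in R with countOverlaps. The counting annotation is not given in the sources used here. Bowtie2 does not splice reads, so reads over exon junctions can be lost or placed on intronless copies. Symbols came from RefSeq for 99.4% of rows, and positions and exons from GENCODE (GRCh37). Members and lists were chosen with earlier results of these data known. Counts were filtered (filterByExpr, minimum count 10, minimum total 15), scaled by TMM and fitted for all 4 groups together with edgeR (4.0.16, R 4.3.3, quasi-likelihood, 14775 genes, biological coefficient of variation 12.5%), with Benjamini-Hochberg adjustment over all genes and calls at an adjusted p under 0.05. DESeq2 (1.42.0), other scalings and filters, GC and length terms, the replicate block and leaving out each library were alternatives. Library totals over all rows were 18594867 to 28993487 counts. CPM used the totals over the tested genes multiplied by their TMM factors. Named members were the 5 lowest and 5 highest called per comparison without overlap between groups and at a mean of at least 5 CPM, core subunits, isoform pairs and complex II, and from each other list the 2 lowest and 2 highest called. Other named genes were chosen after their values were seen. A tested member that is counted is not named here. The fit was tested on simulated data. Libraries of a group differed beyond sampling noise (chi-square per degree of freedom 7.94 to 60.6), so none was a copy.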

Additional observations from a re-analysis of the deposited data

How the results depend on the processing

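Counts of members called higher were 0 under every alternative, and no call of the 29 named members changed sign. The count of lower members without doxycycline (43) was 67 when only the libraries of the comparison were fitted, 69 with a length term and 22 among members without exon overlap, and 19 to 64 when 1 library was left out, with the median from -0.51 to -0.32. With doxycycline (37) it was 12, 69 and 19, and 10 to 62, with the median from -0.54 to -0.17. On induction in vector cells (1) it was 3 by DESeq2, 2 by RLE scaling, 4 by upper-quartile scaling, 4 by library totals, 3 at a mean of at least 5 CPM, 2 with only the libraries of the comparison, 5 with a GC term and 22 with a length term, and 0 to 38 with 1 library left out, with the median from -0.372 to -0.00134. On induction in JUN cells (0) it was 1 by DESeq2, upper-quartile scaling, library totals, the 5 CPM filter, only the libraries of the comparison and a GC term, 10 with a length term, and 0 to 2 with 1 library left out, with the median from -0.16 to -0.03. The interaction median ran from -0.083 to 0.271. The shares of all genes called under these alternatives are not given here. The causes were not tested.

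The labels give all groups the same replicate numbers, and whether these pair the libraries was not settled. The main fit did not use the numbers. Correlations of same-numbered deviations ran from -0.258 to 0.466, and 7 of 18 passed 0.1. Those between libraries with other numbers ran from -0.470 to 0.315, and 5 of 36 passed 0.1. In all, 7 of 12 libraries correlated best with their own number. With the replicate block, 1, 40, 0 and 30 members were lower for induction in vector cells, JUN without doxycycline, induction in JUN cells and JUN with doxycycline, and 0 for the interaction. The replicate block with a GC term gave 4 for induction in vector cells and 1 for induction in JUN cells.

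With 3 libraries a group and members that move together within a library, both the number called and the median shifted when 1 library was left out, and the interaction median changed sign.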
